A study of Aspergillus nidulans and Aspergillus wentii with 48 samples.

Results

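The 5 genes of α-1,3-glucan metabolism followed here in *Aspergillus nidulans* were taken by their gene identifiers from a table of 10988 genes. They are *agsA* (AN5885) and *agsB* (AN3307), which encode α-1,3-glucan synthases, *amyG* (AN3309) and *amyD* (AN3308), which encode amylase-like proteins, and *mutA* (AN7349), which encodes an α-1,3-glucanase. All 5 had enough reads to be tested, together with 9498 genes in all. The 24 libraries came from mycelium of the reference strain THS30 and of the mutant Δ*gfdB*, which lacks the glycerol-3-phosphate dehydrogenase gene *gfdB*. Both strains had the *pyrG89* background, *pyroA*+ and *veA*+ and carried *AfupyrG*+, the *pyrG* marker of *Aspergillus fumigatus*, which in the mutant replaced *gfdB* (Δ*gfdB*::*AfupyrG*+). Submerged cultures, grown for 36 h in the case of THS30 and for 38 h in that of the mutant, were transferred to fresh medium without osmolyte (untreated), with 2 M sorbitol, with 1 M NaCl or with 1 M NaCl + 2 M sorbitol, and RNA was taken 0.5 h later from 3 cultures per group. The culture times differed between the strains, so strain and culture time cannot be told apart.

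α-1,3-Glucan is a polymer of glucose in the outer wall layers of *Aspergillus* hyphae and conidia, laid down by large membrane synthases that use UDP-glucose. In *A. nidulans* AgsB is the main synthase and AgsA a minor one associated with conidia. AmyG is an intracellular protein needed for normal amounts of the polymer, AmyD lowers the amount when it is overproduced, and MutA degrades the polymer during sexual development, when it serves as a carbon reserve. The genes *agsB*, *amyD* and *amyG* lie next to each other on chromosome VI, while *agsA* is on chromosome I and *mutA* on chromosome IV.

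The libraries held 11438978 to 53348830 reads, and the deepest belonged to THS30 under sorbitol. The deleted gene *gfdB* had 71 to 5194 reads in the THS30 libraries and 0 to 2 reads in the Δ*gfdB* libraries, in keeping with the sample titles. Levels below are RPKM (reads per kilobase of gene, scaled to a common library total), which can be compared between genes. Changes are log2 fold changes from edgeR's quasi-likelihood test on read counts, each with its standard error (SE). A gene is called up- or downregulated when its Benjamini-Hochberg adjusted p, written "edgeR adjusted p", was under 0.05 and its change more than 2-fold. With 3 cultures per group an exact permutation test of a single value cannot give a p below 0.1. Whether counting used strand, and how reads matching more than 1 place were handled, is not given in the sources used here. Reads shared by the related *agsA* and *agsB*, or by the adjacent *agsB*, *amyD* and *amyG*, can therefore not be told apart. In RNA from whole mycelium, fewer cells of a type and less RNA per cell cannot be told apart.

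The 5 genes were expressed at very different levels. *amyD* was the most abundant, with 49.1 to 114.7 RPKM, which placed it at the 80.4th to 91.3rd percentile of all genes of a library. *agsB* followed with 5.95 to 36.5 RPKM, then *amyG* with 4.01 to 10.2 RPKM. The genes *agsA* (0.217 to 8.23 RPKM, 39 to 811 reads) and *mutA* (0.586 to 1.79 RPKM, 15 to 138 reads) were low throughout, so their values carry the largest counting error. Over the 8 groups the mean of *agsA* differed 19.9-fold between the lowest and the highest group, that of *agsB* 4.02-fold, and those of *amyG*, *amyD* and *mutA* 1.98-fold, 1.93-fold and 1.76-fold.

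**Figure D1:**
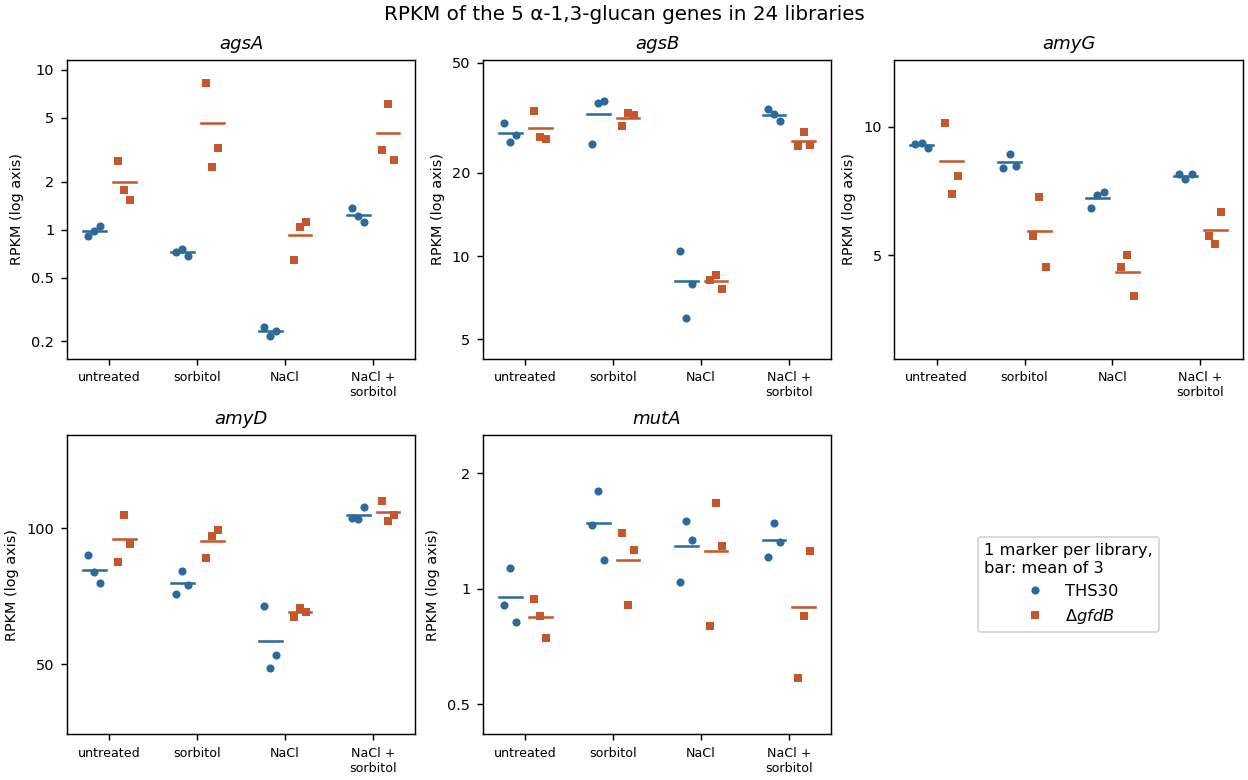
RPKM (log axis) of *agsA*, *agsB*, *amyG*, *amyD* and *mutA* in the 4 conditions, with 1 marker per library (circles THS30, squares Δ*gfdB*) and a bar at the mean of 3. The Δ*gfdB* libraries of *agsA* lie above the THS30 libraries in every condition, and *agsB* is low in NaCl alone in both strains, at 5.95 to 10.4 RPKM.

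*agsB*, the gene of the main synthase, fell under NaCl in both strains and was not called in the other treatments. In untreated THS30 the 3 libraries held 30.3, 25.8 and 27.4 RPKM, and under NaCl 10.4, 5.95 and 7.90 RPKM. In untreated Δ*gfdB* they held 33.4, 27.03 and 26.4 RPKM, and under NaCl 8.17, 8.54 and 7.63 RPKM. No NaCl library reached the lowest untreated library of either strain. The fall was 2.72-fold in THS30 (log2 -1.45, SE 0.15, edgeR adjusted p 1.30e-08) and 2.73-fold in Δ*gfdB* (log2 -1.45, SE 0.15, edgeR adjusted p 1.47e-08). The interaction, which is the NaCl change in Δ*gfdB* minus that in THS30, was -0.01 (SE 0.21), so both strains gave nearly the same value.

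Under sorbitol *agsB* was not called in either strain. The THS30 libraries held 25.4, 35.7 and 36.5 RPKM, and the Δ*gfdB* libraries 29.6, 32.8 and 32.3 RPKM. The log2 changes were 0.34 (SE 0.15) and 0.37 (SE 0.15), under the 2-fold limit. In the NaCl + sorbitol cultures, which held the same NaCl dose as the NaCl cultures, *agsB* was not called either. It was at 33.99, 32.6 and 30.7 RPKM in THS30 and at 25.0, 28.1 and 25.1 RPKM in Δ*gfdB*, against untreated with log2 0.44 (SE 0.15) and 0.03 (SE 0.15).

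Tested directly, *agsB* was 3.44-fold lower in NaCl than in sorbitol in THS30 (log2 -1.78, SE 0.15, edgeR adjusted p 6.35e-09) and 3.53-fold lower in Δ*gfdB* (log2 -1.82, SE 0.15, edgeR adjusted p 3.14e-09). The combined treatment was also set against the sum of the log2 changes of the single treatments, a difference of 0 meaning that they add up. For *agsB* the combined treatment lay above that sum by 1.55 in THS30 (SE 0.21, edgeR adjusted p 5.92e-07) and by 1.11 in Δ*gfdB* (SE 0.21, edgeR adjusted p 5.18e-05). Such departures were common, as 28.1% of all genes tested were called above the sum in THS30, and 26.1% above and 26.3% below it in Δ*gfdB*. None of the 4 comparisons of Δ*gfdB* with THS30 gave a call for *agsB*, with log2 values of 0.10 (untreated), 0.13 (sorbitol), 0.10 (NaCl) and -0.30 (NaCl + sorbitol), each with an SE of 0.15.

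*agsA*, the gene of the minor synthase, was called higher in Δ*gfdB* than in THS30 in all 4 conditions, in untreated cultures by a narrow margin. There THS30 held 0.918, 0.974 and 1.06 RPKM and Δ*gfdB* 2.67, 1.77 and 1.53 RPKM. The Δ*gfdB* libraries were all higher, by 2.09-fold on average (log2 1.06, SE 0.35, edgeR adjusted p 0.0398). This call was kept in 4 of 8 other settings of the processing. It was lost in 5 of the 6 fits that left out 1 of these libraries (edgeR adjusted p 0.0537 to 0.119 in those 5), namely each THS30 library and replicates 1 and 2 of Δ*gfdB*, and the log2 value was 0.82 without replicate 1 of Δ*gfdB*.

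Under sorbitol the strains were farthest apart. THS30 held 0.725, 0.756 and 0.687 RPKM and Δ*gfdB* 8.23, 2.46 and 3.23 RPKM. The difference was 7.14-fold (log2 2.84, SE 0.35, edgeR adjusted p 1.06e-05), which ranked *agsA* 13th from the top of the 9498 genes tested. Replicate 1 of Δ*gfdB* stood far above the other two, and without it the log2 value was 2.17 and the call remained.

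Under NaCl THS30 held 0.247, 0.217 and 0.233 RPKM and Δ*gfdB* 0.641, 1.04 and 1.11 RPKM. That is a 4.28-fold difference (log2 2.098, SE 0.41, edgeR adjusted p 0.00149), with 39 to 46 reads behind each THS30 value. In NaCl + sorbitol THS30 held 1.37, 1.22 and 1.12 RPKM and Δ*gfdB* 3.15, 6.13 and 2.74 RPKM. The difference was 3.27-fold (log2 1.71, SE 0.34, edgeR adjusted p 0.00226), and 1.26 without replicate 2 of Δ*gfdB*. The lowest Δ*gfdB* library was above the highest THS30 library in each of the 4 conditions.

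Of the 5 genes, *agsA* was the one called in the comparison of the strains, in each condition as upregulated in Δ*gfdB*. Among all genes tested, 1.99% were called upregulated in Δ*gfdB* in untreated cultures, 2.46% under sorbitol, 1.2% under NaCl and 1.26% in NaCl + sorbitol. In all 4 conditions together 27 genes (0.284%) were called upregulated, *agsA* among them.

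**Figure D2:**
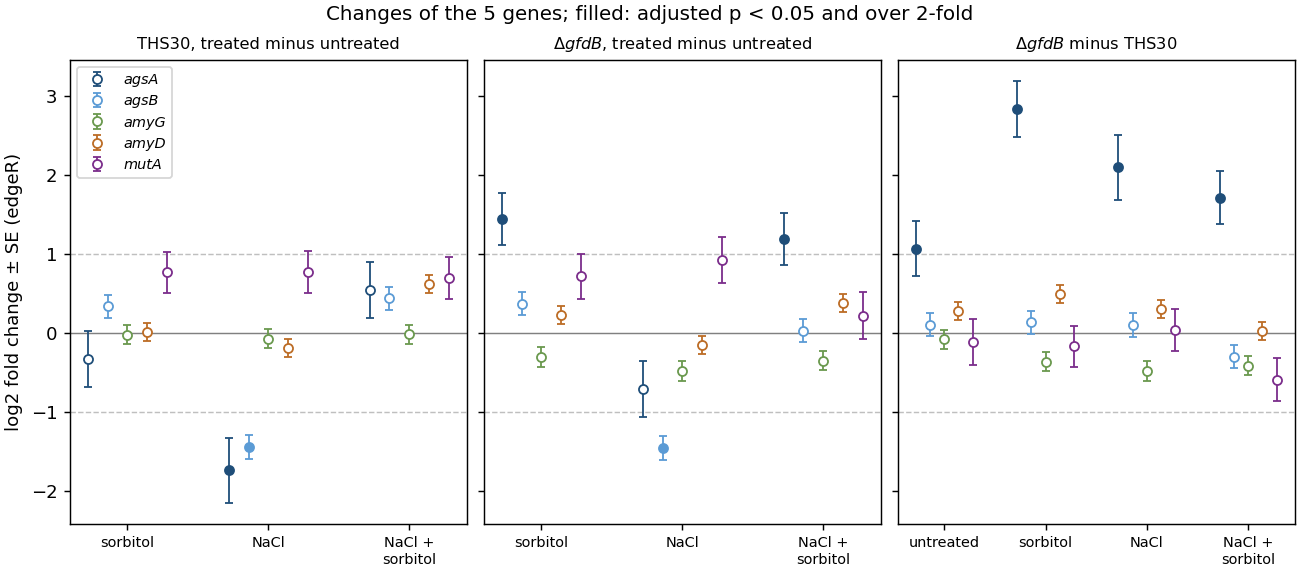
log2 fold changes with their SE (edgeR) of the 5 genes for each treatment against untreated in THS30 (left) and Δ*gfdB* (middle), and for Δ*gfdB* against THS30 in each condition (right). Filled markers passed an adjusted p under 0.05 and a change over 2-fold (dashed lines), which in the right panel holds for *agsA* alone, at 1.06, 2.84, 2.098 and 1.71.

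Within the strains *agsA* was called in 3 of the 6 stress comparisons. In THS30 it was downregulated 3.34-fold by NaCl (log2 -1.74, SE 0.41, edgeR adjusted p 0.000589), from 0.918 to 1.06 RPKM down to 0.217 to 0.247 RPKM. The log2 change was -0.33 under sorbitol (SE 0.36) and 0.55 in NaCl + sorbitol (SE 0.35), neither of them called. On the RPKM scale the 3 sorbitol libraries of THS30 lay below all untreated ones and the 3 combined libraries above them.

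In Δ*gfdB* *agsA* was upregulated 2.71-fold by sorbitol (log2 1.44, SE 0.33, edgeR adjusted p 0.000594) and 2.28-fold by NaCl + sorbitol (log2 1.19, SE 0.33, edgeR adjusted p 0.00408). The sorbitol libraries overlapped the untreated ones, since replicate 2 at 2.46 RPKM lay under the highest untreated library at 2.67 RPKM. Both calls rested on 1 library, as the log2 value was 0.78 without replicate 1 of the sorbitol group and 0.74 without replicate 2 of the combined group. NaCl gave -0.71 (SE 0.35, edgeR adjusted p 0.0755), which was not called, although no NaCl library reached the untreated ones. This value was -1.10 and was called when libraries were scaled by their totals alone.

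The difference between the strains in the sorbitol response was itself tested. The interaction was 1.77 (SE 0.49, edgeR adjusted p 0.0306), the one call among the 15 interactions of the 5 genes, where 0.726% of all genes tested were called upward. It was lost in 5 of the 12 fits without 1 library. These were the fits without THS30 untreated replicate 2 (1.78) or 3 (1.71), THS30 sorbitol replicate 1 (1.78) or 2 (1.80), and Δ*gfdB* sorbitol replicate 1 (1.11), with an edgeR adjusted p of 0.0584 to 0.0896. For NaCl the interaction was 1.03 (SE 0.54, edgeR adjusted p 0.316) and for NaCl + sorbitol 0.65 (SE 0.48, edgeR adjusted p 0.539), comparisons in which 0.663% and 0.337% of all genes tested were called. The 2-fold stress responses of *agsA* in NaCl and in NaCl + sorbitol were thus called in 1 strain each, but a difference between the strains was not shown.

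Against sorbitol, NaCl gave 2.65-fold less *agsA* in THS30 (log2 -1.41, SE 0.41, edgeR adjusted p 0.00551) and 4.43-fold less in Δ*gfdB* (log2 -2.15, SE 0.35, edgeR adjusted p 2.26e-05). Both synthase genes were therefore called lower in NaCl than in sorbitol in both strains, against 6.14% of all genes tested in THS30 and 6.68% in Δ*gfdB*. The combined treatment exceeded the sum of the single ones by 2.62 in THS30 (SE 0.54, edgeR adjusted p 0.000136). In Δ*gfdB* the excess was 0.46 (SE 0.48, edgeR adjusted p 0.388), and 1.12, with a call, without replicate 1 of the sorbitol group.

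Summed over both synthase genes, the transcript level followed *agsB*. It was 28.8 ± 2.22 RPKM (SD, n = 3) in untreated THS30 and 8.32 ± 2.26 RPKM under NaCl. In Δ*gfdB* it was 30.9 ± 4.496 RPKM untreated and 9.04 ± 0.46 RPKM under NaCl. In the sorbitol and combined groups the means were between 30.1 and 36.2 RPKM, and none of the 4 comparisons between strains separated the libraries.

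The part contributed by *agsA* set the strains apart. In THS30 *agsA* made up 3.44% ± 0.43 (SD, n = 3) of the summed synthase RPKM untreated, 2.23% ± 0.48 under sorbitol, 2.91% ± 0.61 under NaCl and 3.66% ± 0.19 in the combined treatment. In Δ*gfdB* the share was 6.34% ± 0.98, 12.6% ± 7.97, 10.3% ± 2.76 and 12.99% ± 4.31 in the same order. The lowest Δ*gfdB* library of any condition, at 5.47%, was above the highest THS30 library, at 3.88%. By an exact two-sided permutation test each condition gave p = 0.1, the smallest this design allows, or 0.167 after Benjamini-Hochberg adjustment over 10 comparisons. The share of 21.7% in replicate 1 of Δ*gfdB* under sorbitol was the highest of the 24 libraries.

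**Figure D3:**
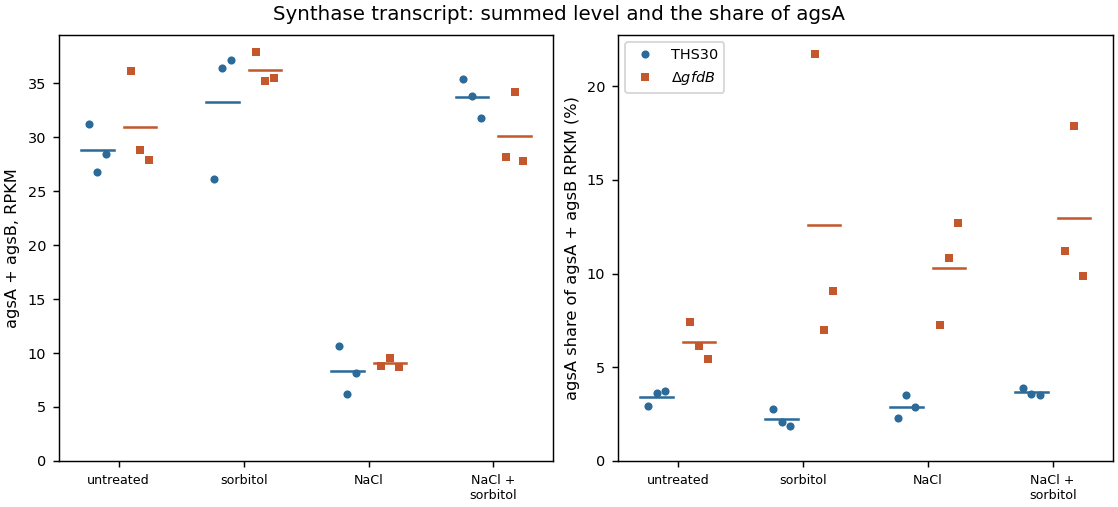
Left, summed RPKM of *agsA* and *agsB*, and right, the percentage of it that is *agsA*, with 1 marker per library (circles THS30, squares Δ*gfdB*) and a bar at the mean of 3. The sum falls to 6.16 to 10.7 RPKM under NaCl in both strains, while the *agsA* share is 1.85 to 3.88% in THS30 and 5.47 to 21.7% in Δ*gfdB*.

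The adjacent genes of amylase-like proteins changed less under NaCl than *agsB*. *amyG*, whose product is needed for the polymer, was not called in any of the 17 comparisons. In THS30 it held 9.09, 9.14 and 8.90 RPKM untreated and 6.46, 6.94 and 7.03 RPKM under NaCl. These libraries did not overlap, but the log2 change of the count fit, which also corrects for RNA composition, was -0.07 (SE 0.12, edgeR adjusted p 0.601), and -0.41 when libraries were scaled by their totals alone. In Δ*gfdB* it held 10.2, 6.97 and 7.69 RPKM untreated and 4.70, 5.02 and 4.01 RPKM under NaCl, with log2 -0.48 (SE 0.13, edgeR adjusted p 0.00182).

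Between the strains *amyG* gave negative values in all 4 conditions, none as large as 2-fold. The log2 values for Δ*gfdB* against THS30 were -0.08 (SE 0.12) untreated, -0.36 (SE 0.12, edgeR adjusted p 0.0246) under sorbitol, -0.49 (SE 0.13, edgeR adjusted p 0.0113) under NaCl and -0.41 (SE 0.12, edgeR adjusted p 0.0317) in NaCl + sorbitol. In the 3 stress conditions the Δ*gfdB* libraries lay below the THS30 libraries, with 4.70 to 6.84 RPKM against 8.02 to 8.65 RPKM under sorbitol, 4.01 to 5.02 against 6.46 to 7.03 RPKM under NaCl, and 5.33 to 6.32 against 7.56 to 7.75 RPKM in NaCl + sorbitol. The untreated groups overlapped. None of the 3 interactions was called, with values of -0.28, -0.41 and -0.33 (SE 0.17 each) and an edgeR adjusted p of 0.219 to 0.351.

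*amyD*, whose product lowers α-1,3-glucan when overproduced, was not called in any comparison either. Its highest group means were in NaCl + sorbitol, at 107.2 ± 3.72 RPKM (SD, n = 3) in THS30 and 108.4 ± 5.73 RPKM in Δ*gfdB*. The untreated means were 81.0 ± 5.87 and 94.5 ± 11.6 RPKM. The change by the combined treatment was 1.54-fold in THS30 (log2 0.62, SE 0.11, edgeR adjusted p 6.46e-05) and 1.30-fold in Δ*gfdB* (log2 0.38, SE 0.11, edgeR adjusted p 0.00705). Under NaCl the means were 56.3 ± 9.68 and 65.2 ± 1.49 RPKM, the lowest of their strains, with log2 -0.19 and -0.15 (SE 0.11 each). Δ*gfdB* exceeded THS30 most under sorbitol, with 85.9, 96.0 and 99.3 RPKM against 71.5, 80.2 and 75.1 RPKM (log2 0.49, SE 0.11, edgeR adjusted p 0.00204).

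The proportion between the 3 adjacent genes therefore shifted with NaCl. In untreated THS30 *amyD* was at 2.91 times the RPKM of *agsB* and under NaCl at 7.07 times (geometric means), and in Δ*gfdB* at 3.27 and 8.05 times. On the log2 scale the ratio increased by 1.28 in THS30 and 1.30 in Δ*gfdB*. *amyG* was at 0.326 times the RPKM of *agsB* in untreated THS30 and at 0.864 times under NaCl, with 0.284 and 0.562 in Δ*gfdB*. The log2 increases were 1.41 and 0.98. In all 4 cases the NaCl libraries lay above every untreated library (exact two-sided permutation p = 0.1, the smallest possible, and 0.25 for *amyD* and 0.143 for *amyG* after adjustment over 10 comparisons).

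**Figure D4:**
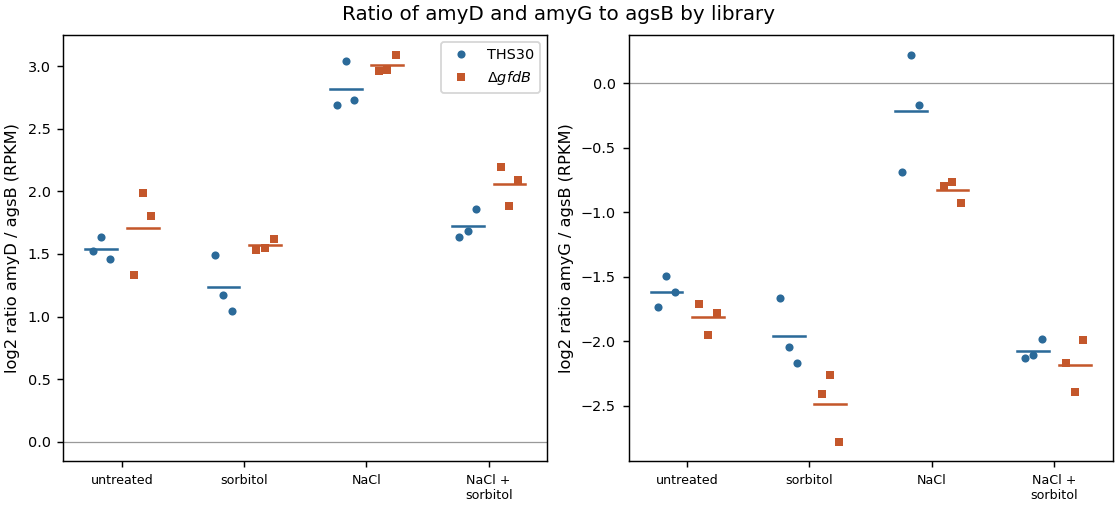
log2 ratio of the RPKM of *amyD* (left) and *amyG* (right) to that of *agsB*, with 1 marker per library (circles THS30, squares Δ*gfdB*) and a bar at the mean of 3. The NaCl libraries lie highest in both panels, at 2.69 to 3.09 for *amyD* and -0.93 to 0.22 for *amyG*.

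Around the 3 genes, the 5 annotated genes on either side gave calls in both directions under NaCl. Of 9 tested, 2 were upregulated and 4 downregulated in THS30, and the same numbers in Δ*gfdB*. The largest were AN3311 (log2 3.72 in THS30 and 2.85 in Δ*gfdB*), AN3305 (2.56 and 1.73) and AN3303 (-2.37 and -2.32), genes without a symbol in the reference. Among all genes tested, 37.1% were called in either direction under NaCl in THS30 and 35.9% in Δ*gfdB*. Those downregulated were 18.1% in THS30 and 17.5% in Δ*gfdB*. Of the 9 tested neighbours of *agsA*, 3 were downregulated by NaCl in THS30, but in the strain comparison 1 was called in 1 condition, AN11492 under sorbitol (log2 1.498, SE 0.21, edgeR adjusted p 2.91e-05). Of the 10 neighbours of *mutA*, 5 were downregulated by NaCl in each strain, led by AN7351 (log2 -2.02 and -1.73), and none was called between the strains.

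*mutA*, the gene of the glucan-degrading enzyme, showed higher values after stress that stayed under the 2-fold limit. In THS30 the untreated libraries held 0.906, 1.13 and 0.821 RPKM, the sorbitol libraries 1.46, 1.79 and 1.19 RPKM, the NaCl libraries 1.04, 1.501 and 1.34 RPKM and the combined libraries 1.21, 1.48 and 1.32 RPKM. The sorbitol and the combined libraries lay above all untreated ones, while the NaCl libraries overlapped them. The log2 changes were 0.77 (SE 0.26, edgeR adjusted p 0.0122), 0.77 (SE 0.27, edgeR adjusted p 0.0132) and 0.70 (SE 0.27, edgeR adjusted p 0.0296).

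In Δ*gfdB* *mutA* held 0.941, 0.848 and 0.742 RPKM untreated and 1.39, 0.906 and 1.26 RPKM under sorbitol. Under NaCl it held 0.799, 1.67 and 1.29 RPKM, and in NaCl + sorbitol 0.586, 0.847 and 1.25 RPKM. Each stress group overlapped the untreated one. The log2 changes were 0.72 (SE 0.29, edgeR adjusted p 0.0334), 0.92 (SE 0.29, edgeR adjusted p 0.00645) and 0.22 (SE 0.30, edgeR adjusted p 0.548), and the NaCl value was 1.19, with a call, without replicate 1 of the NaCl group. The one call of *mutA* was in the combined treatment of Δ*gfdB*, which lay below the sum of the single treatments by 1.42 on the log2 scale (log2 -1.42, SE 0.41, edgeR adjusted p 0.00345). Of all genes tested, 26.3% were called below that sum. The call of *mutA* was kept in 5 of 8 other settings of the processing. With library totals alone its value was -0.97 and was not called. No strain comparison of *mutA* was called (log2 -0.59 to 0.03).

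By treatment, 2 of the 5 genes were called under NaCl in THS30 (both synthase genes, downregulated, beside 18.1% of all genes tested) and 1 in Δ*gfdB* (*agsB*, beside 17.5%). Sorbitol gave 0 calls in THS30 and 1 in Δ*gfdB* (*agsA*, upregulated, beside 15.3%), and the combined treatment 0 in THS30 and 1 in Δ*gfdB* (*agsA*, upregulated, beside 5.7%). For the treatments with 0 calls in THS30, 26.6% and 15.8% of all genes tested were called in either direction, DESeq2 also gave 0 calls among the 5 genes, and 2 and 3 of them had an unadjusted edgeR p under 0.05. The median log2 change of the 5 genes under NaCl was -0.19 in THS30 and -0.48 in Δ*gfdB*, beside -0.11 and -0.09 for all genes tested.

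Among 8 genes of cell wall integrity signalling, the kinase cascade that answers wall damage, 3 were upregulated by sorbitol in Δ*gfdB* and 0 in THS30, beside 15.3% of all genes tested in either strain. These were *rlmA*, the transcription factor at the end of the cascade (log2 1.30, SE 0.12, edgeR adjusted p 2.47e-09), AN5660 (1.13) and the kinase gene *bck1* (1.05). The *rlmA* level was 21.7 ± 2.99 RPKM (SD, n = 3) untreated and 45.1 ± 3.13 RPKM under sorbitol in Δ*gfdB*, against 24.3 ± 1.17 and 30.9 ± 5.37 RPKM in THS30. NaCl + sorbitol upregulated 1 of the 8 in each strain, beside 7.54% of all genes tested in THS30 and 5.7% in Δ*gfdB*. In Δ*gfdB* it was *rlmA* (log2 1.23, SE 0.12, edgeR adjusted p 2.63e-08), which had 0.83 in THS30. In THS30 it was AN5660 (log2 1.06, SE 0.13, edgeR adjusted p 6.23e-07), which had 0.99 in Δ*gfdB*. None of the 8 genes passed the 2-fold limit between the strains or in an interaction, but smaller differences passed the test. The sorbitol interaction was 0.84 for *rlmA* (SE 0.16, edgeR adjusted p 0.00595), 0.49 for AN4674 (SE 0.13, edgeR adjusted p 0.0244) and 0.49 for *pkcA*, the protein kinase C gene (SE 0.13, edgeR adjusted p 0.0306). Under sorbitol these 3 genes, AN5660 and *bck1* were higher in Δ*gfdB* than in THS30 by log2 values of 0.49 to 0.73 (edgeR adjusted p 8.27e-05 to 0.00445). The share of all genes tested that passed the adjusted p alone was not taken, so these smaller differences stand without a baseline. Under NaCl 1 of the 8, AN5666, was downregulated in both strains (log2 -1.39 and -1.33), beside 18.1% and 17.5% of all genes tested.

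Among 10 genes for the other wall polysaccharides, *chsA*, a chitin synthase gene, was upregulated by sorbitol (log2 1.94 in THS30 and 1.81 in Δ*gfdB*) and by NaCl (2.07 and 1.55). The chitin synthase gene *chsE* was downregulated by NaCl in THS30 (log2 -1.04) and upregulated by sorbitol in Δ*gfdB* (1.03), and *gel1*, a β-1,3-glucanosyltransferase gene, was upregulated by the combined treatment in THS30 (1.11). The remaining call in a stress comparison was AN8444 in the combined treatment of Δ*gfdB* (1.29). Each stress comparison thus had 1 or 2 of the 10 genes upregulated. Of all genes tested, sorbitol upregulated 15.3% in either strain, and the combined treatment 7.54% in THS30 and 5.7% in Δ*gfdB*. NaCl upregulated 1808 of the 9498 genes tested in THS30 and 1742 in Δ*gfdB*, and downregulated 18.1% in THS30. None of the 10 passed the 2-fold limit between the strains. Under that limit 5 were higher in Δ*gfdB* under sorbitol (edgeR adjusted p 7.19e-05 to 0.00737), led by *gel1* (log2 0.90) and *chsE* (0.8955). Under NaCl 6 were higher (log2 0.38 to 0.65, edgeR adjusted p 0.00155 to 0.0203). The share of all genes tested that passed the adjusted p alone was not taken, so these counts stand without a baseline.

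Some genes of the lists for UDP-glucose and glycogen and for starch use were upregulated under NaCl, where *agsB* was downregulated. Of 7 genes for UDP-glucose and glycogen, 3 were upregulated by NaCl in each strain and none downregulated, beside 1808 of all genes tested in THS30 and 1742 in Δ*gfdB* that were upregulated. *ugp1*, whose enzyme makes UDP-glucose, had 254.3 ± 21.1 RPKM (SD, n = 3) untreated and 607.8 ± 65.3 RPKM under NaCl in THS30 (log2 1.60, SE 0.12, edgeR adjusted p 1.15e-10), and log2 1.85 in Δ*gfdB*. The other calls were AN2314 (log2 2.03 and 2.13) and AN8010 (1.07 and 1.52). Of 4 genes of starch use 3 were tested, and AN2018 (log2 2.26 and 2.41) and AN2016 (1.49 and 1.31) were upregulated by NaCl in both strains. Sorbitol, under which *agsB* was not called, also upregulated some of these genes, beside 15.3% of all genes tested in either strain. They were *ugp1* in Δ*gfdB* (log2 1.03), AN2018 in both strains (1.86 and 2.05) and AN2016 in Δ*gfdB* (1.12). No gene of either list was called in NaCl + sorbitol.

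The genes whose log2(RPKM + 1) ran most like each member over the 24 libraries were picked by Pearson's r, given here as a description, since the libraries share treatments and strains. For *agsA* they were *rodA* (r = 0.931), which encodes the hydrophobin of the conidial rodlet layer, *ivoB* (r = 0.930), which takes part in conidiophore pigmentation, and AN8661 (r = 0.911). For *agsB* they were AN3760 (0.981), AN9504 (0.974) and AN8268 (0.966), for *amyD* AN1703 (0.968), AN4074 (0.963) and AN5144 (0.962), and for *amyG* AN8811 (0.945), AN4222 (0.943) and AN4332 (0.933). No gene ran as closely with *mutA*, where the highest r was 0.717 (AN8037). Between members r was highest for *agsB* and *amyD* (0.788), yet *agsB* ranked 689th among all genes in likeness to *amyD*. By Spearman's rho the closest pair was *agsA* and *amyD* (0.752, beside 0.491 for *agsB* and *amyD*), *rodA* and *ivoB* ranked 13th and 16th in likeness to *agsA*, and AN8268 ranked 200th in likeness to *agsB*.

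Some genes of conidiation were also higher in Δ*gfdB*. Of those given here *rodA* and *ivoB* were picked for their likeness to *agsA*. The mean RPKM of *rodA* was 2.00, 2.59, 1.19 and 4.18 in THS30 (untreated, sorbitol, NaCl, NaCl + sorbitol) and 9.46, 36.8, 5.83 and 18.5 in Δ*gfdB*. It was called upregulated in Δ*gfdB* in untreated cultures (log2 2.32, edgeR adjusted p 0.0431), under sorbitol (3.97, edgeR adjusted p 0.000252) and in NaCl + sorbitol (2.15, edgeR adjusted p 0.0390). In NaCl the value was 2.43 (SE 0.84, edgeR adjusted p 0.0517). *brlA*, the central regulator of conidiation, was called upregulated in Δ*gfdB* in the same 3 conditions, close to the 2-fold limit. The log2 values were 1.14 (edgeR adjusted p 0.0379), 1.29 (edgeR adjusted p 0.00302) and 1.01 (edgeR adjusted p 0.0380), with 0.75 (SE 0.32, edgeR adjusted p 0.120) in NaCl. In those 3 conditions 1.99%, 2.46% and 1.26% of all genes tested were called upregulated in Δ*gfdB*. The other regulators of the list, *abaA* and *wetA*, were not called between the strains. Under sorbitol, where *agsA* differed most, their log2 values were -0.38 (SE 0.28) and -0.30 (SE 0.43). These 2 genes had only 9 to 149 and 2 to 36 reads per library, so their values are imprecise. The summed RPKM of these 3 regulators lay between 1.02 and 1.32 in untreated THS30 libraries and between 1.43 and 2.61 in untreated Δ*gfdB* libraries. Under sorbitol the ranges were 2.40 to 2.79 and 2.41 to 5.90, under NaCl 1.53 to 1.76 and 2.096 to 2.82, and in NaCl + sorbitol 1.75 to 2.21 and 2.40 to 4.37, so they overlapped between the strains under sorbitol. In THS30 *brlA* was also upregulated by each of the 3 treatments (log2 1.13 in sorbitol, 1.31 in NaCl and 1.20 in NaCl + sorbitol). *agsA* was upregulated by none of them in that strain. *abaA* (log2 1.45) and *wetA* (1.48) were upregulated in THS30 by sorbitol, but not by NaCl or NaCl + sorbitol. In Δ*gfdB* both *brlA* and *agsA* were upregulated by sorbitol and by NaCl + sorbitol, and neither by NaCl. Of all genes tested, sorbitol upregulated 15.3% in either strain, and NaCl + sorbitol 7.54% in THS30 and 5.7% in Δ*gfdB*. NaCl upregulated 1808 of them in THS30.

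The library in which *agsA* was highest was also the highest for *rodA*, *ivoB* and *brlA*, but not for *abaA* or *wetA*. Replicate 1 of Δ*gfdB* under sorbitol held 8.23 RPKM of *agsA*, 87.2 of *rodA*, 36.3 of *ivoB* and 4.79 of *brlA*, while the other two libraries of its group held 2.46 and 3.23 of *agsA*, 9.70 and 13.6 of *rodA*, 10.05 and 10.7 of *ivoB*, and 1.46 and 1.83 of *brlA*. *brlA* was low everywhere, with 15 to 158 reads per library. The part of conidiation in the strain difference of *agsA* was not tested.

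**Figure D5:**
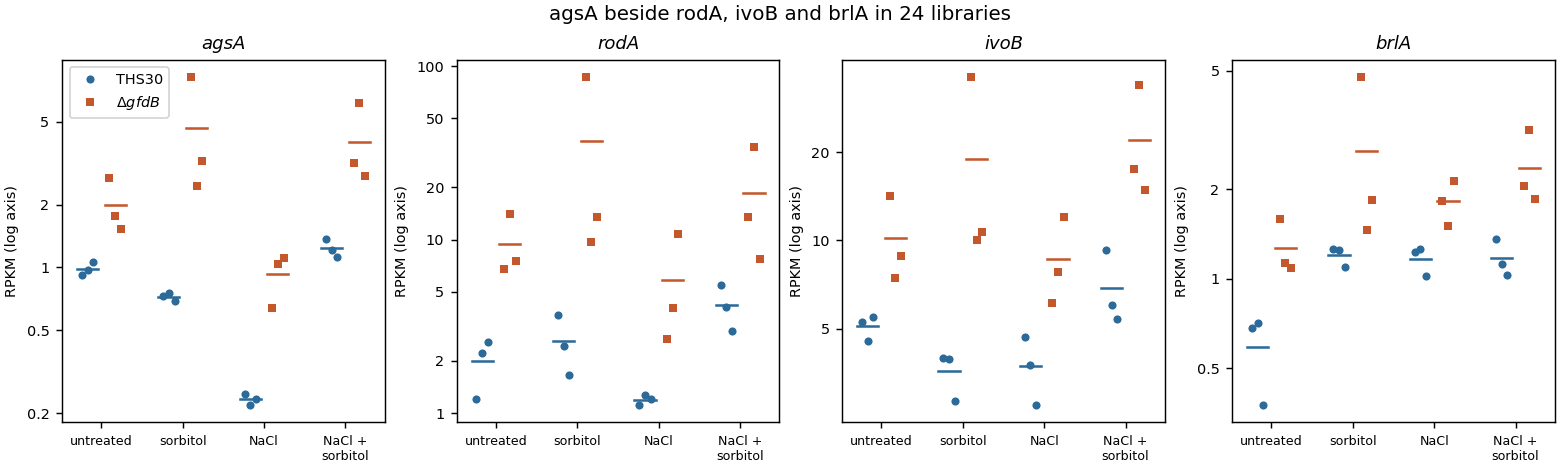
RPKM (log axes) of *agsA*, *rodA*, *ivoB* and *brlA* in the 4 conditions, with 1 marker per library (circles THS30, squares Δ*gfdB*) and a bar at the mean of 3. In all 4 panels replicate 1 of Δ*gfdB* under sorbitol is the highest library, at 8.23, 87.2, 36.3 and 4.79 RPKM. *rodA* and *ivoB* were picked for their likeness to *agsA* over these same libraries.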

How the data were processed

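RNA was sequenced by the authors as single-end reads, aligned with HISAT2 2.1.0 (per the submitters' processing notes) to the *A. nidulans* genome of FungiDB and counted per gene with featureCounts. The deposited table holds raw read counts, gene length and RPKM per library, and the RPKM equals count over length and library total to within 5.2e-15. The members and the gene lists were chosen with earlier results of these data known. Counts of all 24 libraries (8 groups of 3) were fitted together in edgeR 4.0.16 (R 4.3.3; TMM factors 0.809 to 1.165, filterByExpr, quasi-likelihood F-test), and p-values were adjusted by Benjamini-Hochberg over the 9498 genes tested in each of 17 comparisons. The fit was tested on simulated data. Shares and ratios of RPKM were compared by exact two-sided permutation tests (scipy 1.17.1).

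The text names the 5 members, up to 3 called genes with the largest change per list and comparison, and the 3 genes most like each member. The lists were cell wall integrity signalling, other wall polysaccharides, starch use, UDP-glucose and glycogen, conidiation regulators, and the 5 annotated genes on either side of the members. Gene symbols came from the RefSeq table (assembly ASM1142v1, 10029 identifiers matched), which was used for names and gene order. Alternatives were DESeq2 1.42.0, RLE size factors, library totals alone, no low-count filter, the groups compared alone, a replicate block, limma 3.58.1 on log2(RPKM + 1) or log2(RPKM + 0.1), and leaving out each library. Searches of protein relatives and promoter motifs were not run, and *Aspergillus wentii* libraries were not analysed here. The read totals set the precision, and the low genes *agsA* and *mutA* are measured least precisely. Sample titles were followed where 11 genotype labels named *sodB* in place of *gfdB*.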

Additional observations from a re-analysis of the deposited data

Results flagged for a closer look

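The response of *agsA* to sorbitol differed between the strains by the interaction test, with a value of 1.77 on the log2 scale (SE 0.49, edgeR adjusted p 0.0306), from -0.33 in THS30 and 1.44 in Δ*gfdB*. Replicate 1 of Δ*gfdB* under sorbitol held 8.23 RPKM of *agsA*, beside 2.46 and 3.23 RPKM in the rest of its group. Without this library the interaction was 1.11 and was not called. That library was also the highest for *brlA*, but not for *abaA* or *wetA*. It was the highest for *rodA* and *ivoB* too, which were picked for their likeness to *agsA* over these same libraries. Over the alternatives that kept every library the edgeR, DESeq2 or limma adjusted p was 0.00425 to 0.0875.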

How the results depend on the processing

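Of 85 tests of the 5 genes 18 were called, and 0 of these changed sign under any alternative; 23 results did change sign, none over 0.23 in size. All calls of *agsB* remained. Without TMM the median of all genes shifted by -0.11, -0.34 and -0.22 in THS30 (sorbitol, NaCl, combined) and by -0.24, -0.38 and -0.18 in Δ*gfdB*, so changes are relative to that scaling. Causes were not tested.

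With log2(RPKM + 1), which compresses low genes, *agsA* gave -0.69 (THS30 NaCl), 0.80 and 0.70 (Δ*gfdB* sorbitol, combined), 0.57 and 0.64 (strain, untreated, NaCl), 1.00 (sorbitol interaction) and -0.48 (NaCl against sorbitol, THS30), all uncalled, so that 0 or 1 of the 5 genes were called there. With log2(RPKM + 0.1) it gave -1.01 (Δ*gfdB* NaCl, called, making 2), 0.92 (combined), 0.91 (strain untreated) and 1.42 (interaction), the last 3 uncalled. Library totals alone gave -1.10 in Δ*gfdB* NaCl (called, making 2). With only the groups compared, the strain value untreated was 1.09 and the interaction 1.78, both uncalled. The replicate numbers did not pair the samples (correlations -0.270 to 0.304), and the replicate block gave 1.04 for the untreated strain difference (edgeR adjusted p 0.0513), uncalled, and changed no other call.

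Under library totals, limma + 1 and limma + 0.1 in turn, *agsB* gave -0.15, -0.14 and -0.15 (Δ*gfdB* combined), -0.044, -0.026 and -0.026 (strain sorbitol) and -0.10, -0.076 and -0.078 (sorbitol interaction). *amyD* gave -0.099, -0.097 and -0.098 (THS30 sorbitol), -0.011, -0.0068 and -0.0068 (Δ*gfdB* sorbitol) and 1.03, 1.03 and 1.04 (non-additivity THS30, called). *mutA* gave -0.97, -0.49 and -0.88 (non-additivity Δ*gfdB*, uncalled, leaving 1 call), -0.066, -0.039 and -0.082 (strain NaCl) and -0.23, -0.11 and -0.18 (NaCl against sorbitol, THS30). With only the groups compared *mutA* gave -0.017 (strain NaCl). The NaCl interaction of *amyD* was -0.0098 by totals and -0.044 with only the groups compared. *amyG* in THS30 gave 0.014 (DESeq2 and RLE) under sorbitol, 0.014 and 0.031 (groups compared) under NaCl, 0.035, 0.037 and 0.036 combined, 0.00068 (RLE, NaCl against sorbitol) and -0.0061 (non-additivity, groups compared).

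With 1 library left out, *agsA* ranged 0.78 to 1.82 (Δ*gfdB* sorbitol), 0.74 to 1.44 (Δ*gfdB* combined), 0.82 to 1.21 (strain untreated), 1.11 to 2.101 (sorbitol interaction) and 0.0052 to 1.12 (non-additivity Δ*gfdB*), the first 4 with 0 or 1 of the 5 genes called. *agsB* ranged -0.038 to 0.13 (Δ*gfdB* combined), -0.014 to 0.24 (strain sorbitol), -0.072 to 0.33 (strain NaCl), -0.12 to 0.13 and -0.18 to 0.22 (sorbitol, NaCl interactions). *amyD* ranged -0.032 to 0.061 (THS30 sorbitol), -0.0079 to 0.070 (strain combined) and -0.059 to 0.19 (NaCl interaction), and *amyG* -0.24 to 0.018 (strain untreated). *mutA* ranged 0.71 to 1.19 (Δ*gfdB* NaCl, 1 to 2 calls), -0.089 to 0.49 (Δ*gfdB* combined), -0.20 to 0.020, -0.29 to 0.062 and -0.18 to 0.30 (strain untreated, sorbitol, NaCl), -0.19 to 0.15 and -0.064 to 0.42 (interactions), and -0.13 to 0.18 and -0.026 to 0.48 (NaCl against sorbitol).

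Genes called among all tested moved over 1.5 times in strain comparisons, untreated from 245 to 90 (limma + 1) and 91 (groups compared), sorbitol from 409 to 201, NaCl from 2.26% to 1.07% of the genes tested and combined from 189 to 90 (limma + 1). In interactions, with only the groups compared, they moved from 195 to 55 (sorbitol), 63 to 15 (NaCl) and 32 to 18 (combined; 53 by DESeq2, 19 by limma + 1). With 1 library left out the interactions gave 105 to 449, 22 to 148 and 15 to 120 genes.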
